A study of Mus musculus with 36 samples.

Results

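The 10 genes described here belong to the response to bone morphogenetic proteins (BMPs). They are the ligands Bmp2 and Bmp4, the target genes Id1, Id2, Id3, Id4, Msx1 and Msx2, and the inhibitory Smads Smad6 and Smad7. They were chosen by name, by gene symbol and by RefSeq transcript, and all 10 were found among the 22456 genes present in both kinds of deposited expression file. Messenger RNA was sequenced in 12 mouse libraries, and the 24 chromatin and input samples of the series were not analysed here. All 12 libraries came from cells labelled as carrying a homozygous deletion of MLL3 (MLL3-/-, the gene Kmt2c). The cells called f/f still had the conditional allele of MLL4 (MLL4flox/flox, the gene Kmt2d), and the cells called DKO had lost it (MLL4-/-). Both genes encode histone H3 lysine methyltransferases that act at enhancers.

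Embryonic stem cells (ESC) of both genotypes were grown with LIF on irradiated fibroblast feeder cells. Bodies are embryoid bodies made from these cells in suspension without LIF, taken at day 4. The remaining groups were immortalised embryonic fibroblasts of both genotypes and the same kind of fibroblasts at day 20 after lentiviral delivery of the factors abbreviated OSKM in the labels. Each ESC and body group had 2 libraries, 1 in each of 2 deposit sets. Set 1 was deposited as read counts and RPKM and set 2 as FPKM, both of which scale reads to the length of the gene and the depth of the library. Each fibroblast and day-20 group had 1 library, in set 2. The deposited names of the 2 DKO ESC libraries carry the same number after the genotype, and nothing in the labels says that the libraries of a group came from separate cultures. The p-values therefore reflect how far these libraries spread, and that spread may be technical.

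BMP ligands bind pairs of type I and type II receptor kinases, which phosphorylate the receptor Smads Smad1, Smad5 and Smad9. These enter the nucleus with Smad4 and bind DNA at regulatory regions, where the Id genes, the Msx genes, Smad6 and Smad7 are among the best known direct targets. In mouse ESC, BMP signalling together with LIF is known to help keep cells undifferentiated through Id proteins, and in the early embryo BMP4 is needed for mesoderm formation.

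The windows of 250 bases before the annotated start of the genes that moved with differentiation are shown, so that the promoters of genes with opposite changes can be read side by side. They are taken from RefSeq for build GRCm38.p6, while the deposited files name build mm9. 7 of the 10 genes had an entry, and 4 are printed. Msx1 and Msx2 had higher values in f/f bodies than in f/f ESC of both sets, and Id4 had lower ones. Id2 is the other window with a match to the longer motif. Capitals mark the motif GGCGCC, a GC-rich sequence that receptor Smads of the BMP branch can bind, and the motif GTCT (AGAC on the other strand), the core of the Smad box. GGCGCC is its own reverse complement, and the motifs were read on both strands.
Msx1, chr5:37824586-37824835, minus strand: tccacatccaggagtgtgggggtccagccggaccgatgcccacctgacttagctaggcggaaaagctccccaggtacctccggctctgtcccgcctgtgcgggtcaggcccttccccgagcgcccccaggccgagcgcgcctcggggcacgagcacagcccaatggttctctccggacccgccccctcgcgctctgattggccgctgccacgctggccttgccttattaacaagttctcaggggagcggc
Msx2, chr13:53472781-53473030, minus strand: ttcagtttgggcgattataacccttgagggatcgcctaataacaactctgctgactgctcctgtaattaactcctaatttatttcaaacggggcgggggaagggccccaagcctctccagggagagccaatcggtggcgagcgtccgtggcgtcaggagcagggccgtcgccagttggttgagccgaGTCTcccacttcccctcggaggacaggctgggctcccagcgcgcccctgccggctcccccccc
Id4, chr13:48260866-48261115, plus strand: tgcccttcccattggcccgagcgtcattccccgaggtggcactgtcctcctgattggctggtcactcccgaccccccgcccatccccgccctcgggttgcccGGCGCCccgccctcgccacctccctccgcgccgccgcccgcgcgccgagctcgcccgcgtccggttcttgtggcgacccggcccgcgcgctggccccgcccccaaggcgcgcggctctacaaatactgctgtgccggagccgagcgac
Id2, chr12:25096093-25096342, minus strand: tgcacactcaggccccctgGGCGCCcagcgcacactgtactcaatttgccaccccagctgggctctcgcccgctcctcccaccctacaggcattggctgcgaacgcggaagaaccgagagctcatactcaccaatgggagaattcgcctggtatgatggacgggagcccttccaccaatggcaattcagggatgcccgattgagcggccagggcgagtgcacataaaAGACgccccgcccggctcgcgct
The Id4 window held GGCGCC once, starting 148 bases before the start, and the Id2 window held it once, starting 231 bases before it. Neither Msx window held GGCGCC. That motif was present in 9.59% of all 32851 promoter windows of the same length, and in 2 of the 7 windows of these genes. GTCT or AGAC was present in 82.9% of all windows and in 5 of the 7, and Msx1 and Id4 were the windows without it. The palindrome GTCTAGAC, which holds both GTCT and AGAC, was in 0.167% of all windows and in 0 of the 7. A match describes letters in this window only. The share of G and C in the 7 windows ran from 61.6% (Msx2) to 75.6% (Id4), beside a median of 52.4% over all windows.

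Depth behind the values ran from 11366217 reads (f/f bodies of set 2) to 38264260 reads (DKO fibroblasts). Kmt2d values over the whole transcript were 8.89 to 14.3 in the DKO and 13.5 to 18.7 in the f/f libraries of ESC and bodies, but in fibroblasts and at day 20 the DKO libraries had more (23.5 and 24.8 FPKM) than the f/f libraries (14.4 and 12.9 FPKM). Kmt2c values ran from 1.8 RPKM to 3.44 FPKM over the 12 libraries. Values over the whole transcript do not isolate the deleted part and check nothing about it, so the fibroblast and day-20 libraries are named by their labels below. Pluripotency markers summed to 2840 RPKM and 4250 FPKM in f/f ESC and to 1540 RPKM and 1280 FPKM in f/f bodies. In DKO cells they summed to 2050 RPKM and 3060 FPKM in ESC and to 2090 RPKM and 1350 FPKM in bodies. At day 20 they summed to 40 FPKM in the library labelled f/f and to 10.5 FPKM in the one labelled DKO, with Zfp42 at 0.0666 and 0 FPKM, while 12 fibroblast markers summed to 14100 and 9750 FPKM. The day-20 libraries, which carry an iPSC label, are therefore called day-20 cells.

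Levels below are given as RPKM in set 1 and then FPKM in set 2. The sets were counted differently, so levels are compared only within a set. Differences are on the scale log2(value + 1), which understates changes of low genes. They come from 1 limma fit to the 8 ESC and body libraries with a term for the set, with p adjusted by Benjamini-Hochberg over 12466 genes (those averaging 1 or more across the 8) and a threshold of 0.05. 9 of the 10 genes were tested. Bmp2, with a mean of 0.995, stood just below the filter. Msx1 (mean 1.64) and Msx2 (mean 2.83) passed it only through the f/f bodies, without which their means were 0.465 and 0.915.

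**Figure D1:**
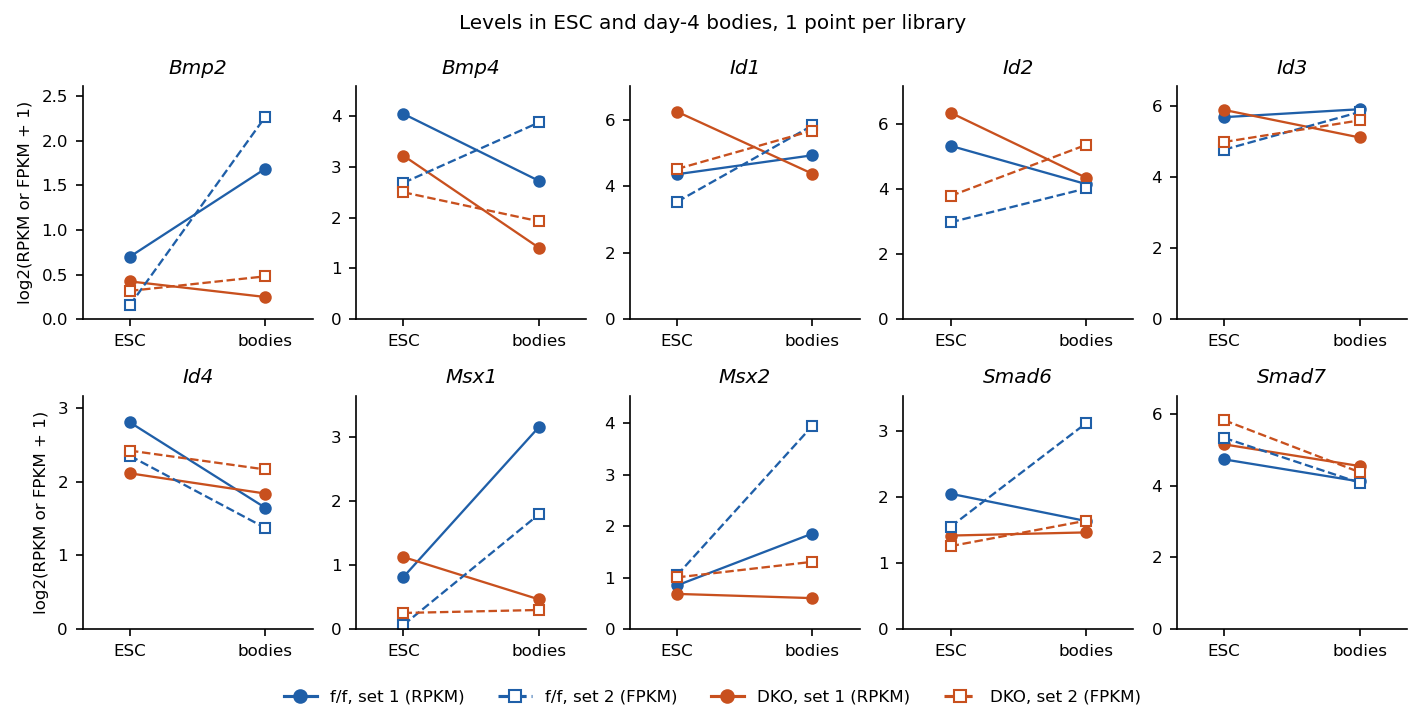
Level of each gene on the scale log2(RPKM or FPKM + 1) in ESC and day-4 bodies, 1 point per library, with lines joining libraries of the same genotype (blue f/f, orange DKO) and set (filled circles set 1, open squares set 2). Bmp2, Msx1 and Msx2 are highest in the f/f bodies of both sets, and Smad7 is lower in bodies than in ESC in both genotypes and both sets.

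The ligand Bmp4, the BMP best known for its part in mesoderm formation, was lower in DKO than in f/f bodies in both sets, but did not pass the test. It stood at 5.59 RPKM and 13.6 FPKM in f/f bodies and at 1.65 RPKM and 2.8 FPKM in DKO bodies, a difference of -1.63 ± 0.57 (SE, n = 2 libraries per group, adjusted p = 0.176, limma). With a separate set term for each stage it passed (limma adjusted p = 0.0127). That setting, cited again below, is the more permissive one. In this comparison it called 1524 genes, against 553 in the main fit and 2 with no set term. In ESC Bmp4 stood at 15.4 RPKM and 5.42 FPKM in f/f and at 8.28 RPKM and 4.64 FPKM in DKO cells. The DKO value was lower in each of these 4 within-set pairs. Between ESC and bodies the f/f libraries moved in opposite ways in the 2 sets, down by 1.31 on the log2 scale in set 1 and up by 1.19 in set 2. In DKO cells Bmp4 was lower in bodies in both sets, by -1.81 and -0.57, which as a mean (-1.19 ± 0.57, limma adjusted p = 0.313) did not pass, and passed with a set term for each stage (0.0410).

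Bmp2, a ligand close in sequence to Bmp4, was low in ESC, at 0.626 RPKM and 0.117 FPKM in f/f and 0.342 RPKM and 0.247 FPKM in DKO cells. It stood at 2.22 RPKM and 3.82 FPKM in f/f bodies, from 104 and 155 reads, and at 0.189 RPKM and 0.396 FPKM in DKO bodies, from 11 and 19 reads. In each set the f/f bodies were above the other 3 libraries. It was not tested in the main fit. In a fit without the filter on low values the difference between DKO and f/f bodies was -1.61 ± 0.31 (limma adjusted p = 0.160), and that between f/f bodies and f/f ESC was 1.55 ± 0.31 (limma adjusted p = 0.108).

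The other BMP and GDF ligands on the list had 3 of 13 members above the filter. Of these, 1 (Gdf3) passed a test, in f/f differentiation, where 12.0% of all genes were called. Gdf3, a ligand of the same superfamily expressed in pluripotent cells, fell between f/f ESC (24.9 RPKM and 32.4 FPKM) and f/f bodies (13.3 RPKM and 8.05 FPKM), by -1.37 ± 0.31 (limma adjusted p = 0.0392, and 0.164 without the filter on low values). Bmp7 stood at 3.65 RPKM and 4.96 FPKM in f/f bodies and at 2.9 RPKM and 1.96 FPKM in DKO bodies, a difference of -0.63 ± 0.22 (limma adjusted p = 0.175).

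Transcripts of 2 receptors and 3 Smads rose from f/f ESC to f/f bodies. Bmpr1a, a type I receptor for Bmp2 and Bmp4, rose from 13.4 RPKM and 10.7 FPKM to 22.5 RPKM and 22.3 FPKM, a change of 0.85 ± 0.14 (limma adjusted p = 0.0197). The type II receptor Acvr2b rose by 0.69 ± 0.13 (limma adjusted p = 0.0261), and the coreceptor Eng (endoglin) fell by 0.82 ± 0.18 on the log2 scale (limma adjusted p = 0.0374). Of the 9 receptors and coreceptors tested, of 10 listed, 2 rose and 1 fell, beside 12.0% of all genes called in this comparison. All 3 tested Smads of the pathway rose, Smad1 by 0.82 ± 0.16, Smad5 by 0.65 ± 0.13 and Smad4, the partner shared with the TGF-beta branch, by 0.44 ± 0.10 (limma adjusted p = 0.0309, 0.0302 and 0.0469). Their median change was 0.65, against 0.06 over all genes tested. Without the filter on low values none of these 6 calls passed, with limma adjusted p of 0.0696 (Smad5) to 0.120 (Eng). None of these receptors or Smads passed a test between genotypes in ESC or in bodies.

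The 4 Id genes encode proteins without a DNA-binding region that pair with E proteins and keep these from DNA. Id1 to Id3 were the more abundant, with Id3 between 26.3 FPKM and 59 RPKM in every ESC and body library, and Id4 did not exceed 5.99 RPKM.

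Id1 was higher in DKO than in f/f ESC in both sets. It stood at 19.6 RPKM and 10.6 FPKM in f/f ESC and at 74.9 RPKM and 22 FPKM in DKO ESC, a difference of 1.44 ± 0.70 (limma adjusted p = 0.299) that did not pass, but did with a set term for each stage (0.0217). In bodies the order was the other way round in both sets, at 29.6 RPKM and 56 FPKM in f/f and 19.8 RPKM and 50.2 FPKM in DKO bodies, differing by -0.35 ± 0.70 (limma adjusted p = 0.815). The difference between these genotype effects was -1.79 ± 1.00 (limma adjusted p = 0.495) and did not pass either. From ESC to bodies Id1 was higher in f/f libraries of both sets, by 0.57 and 2.30, which passed only with a set term for each stage (limma adjusted p = 0.0113), while the DKO libraries moved by -1.87 in set 1 and 1.15 in set 2.

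Id2 was higher in DKO ESC in both sets, at 81.1 RPKM and 12.9 FPKM against 39.5 RPKM and 6.92 FPKM in f/f ESC. In bodies it stood at 16.9 RPKM and 15.3 FPKM in f/f and at 19.5 RPKM and 40.3 FPKM in DKO. The DKO value was the higher in all 4 within-set pairs, and neither difference passed (0.91 ± 0.86 and 0.77 ± 0.86, limma adjusted p = 0.589 and 0.652). With differentiation Id2 was lower in set 1 and higher in set 2 in both genotypes, so that the fitted stage changes of -0.07 in f/f and -0.21 in DKO cells average over opposite directions.

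Id3 stood at 50.4 RPKM and 26.3 FPKM in f/f ESC, 58.2 RPKM and 30.7 FPKM in DKO ESC, 59 RPKM and 55.8 FPKM in f/f bodies, and 33.6 RPKM and 47.3 FPKM in DKO bodies. It was somewhat higher in DKO ESC and lower in DKO bodies in both sets, with fitted differences of 0.21 ± 0.34 and -0.51 ± 0.34 (limma adjusted p = 0.771 and 0.445). The 95% interval in bodies reached from -1.35 to 0.32, which leaves room for a change of either sign. With a set term for each stage the change of Id3 from f/f ESC to f/f bodies passed (0.64, limma adjusted p = 0.0292).

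Id4 fell with differentiation in f/f cells. It stood at 5.99 RPKM and 4.1 FPKM in f/f ESC and at 2.13 RPKM and 1.59 FPKM in f/f bodies. Bodies were thus below ESC in both sets, by 1.07 ± 0.24 on the log2(value + 1) scale (limma adjusted p = 0.0405). In DKO cells it stood at 3.33 RPKM and 4.36 FPKM in ESC and at 2.58 RPKM and 3.49 FPKM in bodies, a difference of -0.27 ± 0.24 (limma adjusted p = 0.591). The difference between the 2 stage changes was 0.80 ± 0.34 (limma adjusted p = 0.380), so a difference between genotypes was not shown. The call was lost when any 1 of 6 libraries was left out, with adjusted p of 0.0577 to 0.244.

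The E proteins that Id proteins bind had 3 listed members, all tested. Tcf12 (HEB) rose from 6.64 RPKM and 9.08 FPKM in f/f ESC to 15.9 RPKM and 19.7 FPKM in f/f bodies, a change of 1.09 ± 0.11 (limma adjusted p = 0.0135). It was also higher in DKO than in f/f ESC, at 10.7 RPKM and 15.4 FPKM, by 0.66 ± 0.11 (limma adjusted p = 0.0359). Both Tcf12 calls were lost without the filter on low values (limma adjusted p = 0.0605 and 0.0838). Tcf3 and Tcf4 passed no test. Beside these calls, 12.0% of all genes were called in f/f differentiation and 4.24% between DKO and f/f ESC.

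The Msx genes, homeobox genes expressed in early mesoderm and in many later BMP-dependent tissues, were highest in f/f bodies and low elsewhere. Msx1 stood at 7.88 RPKM and 2.46 FPKM in f/f bodies, from 284 and 54 reads, and at 0.38 RPKM and 0.231 FPKM in DKO bodies, from 17 and 6 reads. In ESC it stood at 0.759 RPKM and 0.048 FPKM in f/f and at 1.18 RPKM and 0.192 FPKM in DKO cells. In each set the f/f bodies stood above the other 3 libraries. Msx1 passed the filter only through the f/f bodies, with a mean of 0.465 without them. The adjusted p values of Msx1 are therefore not read as support. On the log2(value + 1) scale Msx1 rose in f/f cells from ESC to bodies by 2.03 ± 0.29 (limma adjusted p = 0.0168). It was lower in DKO than in f/f bodies by 2.09 ± 0.29 (limma adjusted p = 0.0202). In DKO cells the change with differentiation was -0.31 ± 0.29 (limma adjusted p = 0.606). The difference between the genotype effects in bodies and in ESC, -2.34 ± 0.41, did not pass (limma adjusted p = 0.119).

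Msx2 stood at 2.63 RPKM and 14.5 FPKM in f/f bodies and at 0.52 RPKM and 1.48 FPKM in DKO bodies. ESC levels were 0.804 RPKM and 1.07 FPKM in f/f and 0.609 RPKM and 1.01 FPKM in DKO cells, again with the f/f bodies above the other 3 libraries of each set. Msx2 also passed the filter only through the f/f bodies (mean of 0.915 without them), so its adjusted p values are not read as support either. It rose in f/f cells with differentiation by 1.96 ± 0.45 on the log2(value + 1) scale (limma adjusted p = 0.0432). The difference between DKO and f/f bodies was of the same size, -1.95 ± 0.45, and did not pass in limma (adjusted p = 0.0709), whereas edgeR's quasi-likelihood test on reads gave an adjusted p of 0.0446 and limma with a set term for each stage 0.0224. In DKO cells the change was 0.11 ± 0.45 (limma adjusted p = 0.925).

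The Msx calls rested on few libraries. Msx1 lost its call between genotypes in bodies without f/f replicate 1 (adjusted p = 0.107), without f/f replicate 2 (0.0867) or without DKO replicate 1 (0.0771), where the replicate number is that of the set. Its stage call in f/f cells was lost without any 1 of the 4 f/f libraries, with adjusted p of 0.0771 to 0.136, and that of Msx2 without any 1 of the 8 libraries, with adjusted p of 0.0552 to 0.247. With no filter on low values the 3 Msx calls were lost, with adjusted p of 0.130, 0.0860 and 0.175, and quantile scaling also ended the Msx2 call (0.0673).

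Among the ESC and body libraries of each set, summed markers of mesoderm, endoderm, trophoblast and neuroectoderm were highest in f/f bodies, as were the Msx genes. Those of blood and endothelium were highest in f/f bodies in set 2 only. The summed level of 8 primitive streak and early mesoderm markers was 164 RPKM and 124 FPKM in f/f bodies, 8.14 RPKM and 10.5 FPKM in DKO bodies, and between 2.7 and 23.3 in the ESC libraries. T, a transcription factor of the primitive streak, stood at 69.5 RPKM and 45.1 FPKM in f/f and at 1.08 RPKM and 1.05 FPKM in DKO bodies, and was lower in DKO bodies by 4.79 ± 0.57 (limma adjusted p = 0.0135). Of the 6 members of that list above the filter, Mixl1, Lhx1 and Evx1 passed it only through the f/f bodies, without which their means were 0.549, 0.711 and 0.549. The same held for all 3 endoderm markers above it, Foxa2, Gata4 and Gata6 (0.711, 0.658 and 0.626), so the calls of those lists are not counted here. Foxa2 stood at 6.12 RPKM and 4.49 FPKM in f/f bodies and at 0.873 RPKM and 0.282 FPKM in DKO bodies. The summed level of 6 trophoblast markers was 267 RPKM and 545 FPKM in f/f bodies, 43.4 RPKM and 83.3 FPKM in DKO bodies, and between 34.8 and 111 in the ESC libraries. Most of that sum was keratin, with Krt18 at 171 RPKM and 302 FPKM in f/f and 28.9 RPKM and 48.2 FPKM in DKO bodies, and Krt8 at 47.4 RPKM and 210 FPKM against 5.7 RPKM and 26.5 FPKM. Both keratins rose in f/f differentiation (limma adjusted p = 0.0338 for Krt8 and 0.0237 for Krt18), and their differences between DKO and f/f bodies, -2.89 ± 0.64 and -2.57 ± 0.58, did not pass (limma adjusted p = 0.0629 and 0.0660). Tfap2c, on the same trophoblast list, went the other way, from 53.8 RPKM and 49.5 FPKM in f/f ESC to 17.3 RPKM and 6.71 FPKM in f/f bodies. It stood at 3.27 RPKM and 3.48 FPKM in DKO ESC and at 3.62 RPKM and 3.03 FPKM in DKO bodies. The summed level of 5 neuroectoderm markers was 122 RPKM and 99.8 FPKM in f/f bodies and 33.1 RPKM and 71.7 FPKM in DKO bodies. On that list Nes was lower, and Sox1 and Zic1 higher, in DKO than in f/f bodies of both sets. Pax6 and Otx2 differed in opposite ways in the 2 sets. In these bulk libraries fewer cells of a type and less RNA per cell cannot be told apart, and the part of cell composition in the Msx, Bmp2 and Bmp4 values was not tested.

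Smad6 and Smad7, the inhibitory Smads are induced by the pathway they hold back. Smad7 stood at 25.5 RPKM and 39.1 FPKM in f/f ESC and at 16.3 RPKM and 15.9 FPKM in f/f bodies. In DKO cells it stood at 34.4 RPKM and 55.4 FPKM in ESC and 22.3 RPKM and 19.7 FPKM in bodies. Bodies were below ESC in all 4 within-set pairs, and DKO was above f/f in all 4. The stage changes were -0.93 ± 0.23 in f/f (limma adjusted p = 0.0512) and -1.03 ± 0.23 in DKO cells (limma adjusted p = 0.101), both short of the threshold. With median-of-ratios scaling the f/f change was -1.03 and passed (limma adjusted p = 0.0316), as it did in edgeR (-1.06, adjusted p = 0.0356). With a set term for each stage both stage changes passed (limma adjusted p = 0.00472 in f/f and 0.00910 in DKO cells), as did the difference between DKO and f/f ESC (0.46, 0.0360).

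Smad6 stood at 3.14 RPKM and 1.93 FPKM in f/f ESC, 1.67 RPKM and 1.39 FPKM in DKO ESC, 2.11 RPKM and 7.67 FPKM in f/f bodies, and 1.76 RPKM and 2.12 FPKM in DKO bodies. It was lower in DKO than in f/f libraries in all 4 within-set pairs, and neither genotype difference passed (-0.46 ± 0.45 in ESC and -0.82 ± 0.45 in bodies, limma adjusted p = 0.601 and 0.351). From f/f ESC to f/f bodies it moved by -0.41 in set 1 and 1.56 in set 2, a mean of 0.57 ± 0.45 (limma adjusted p = 0.418), and in DKO cells by 0.22 ± 0.45 (limma adjusted p = 0.830). Among the ESC and body libraries, the high value of 7.67 FPKM was found in the f/f bodies of set 2 alone, the library that also had the highest Msx2 value.

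**Figure D2:**
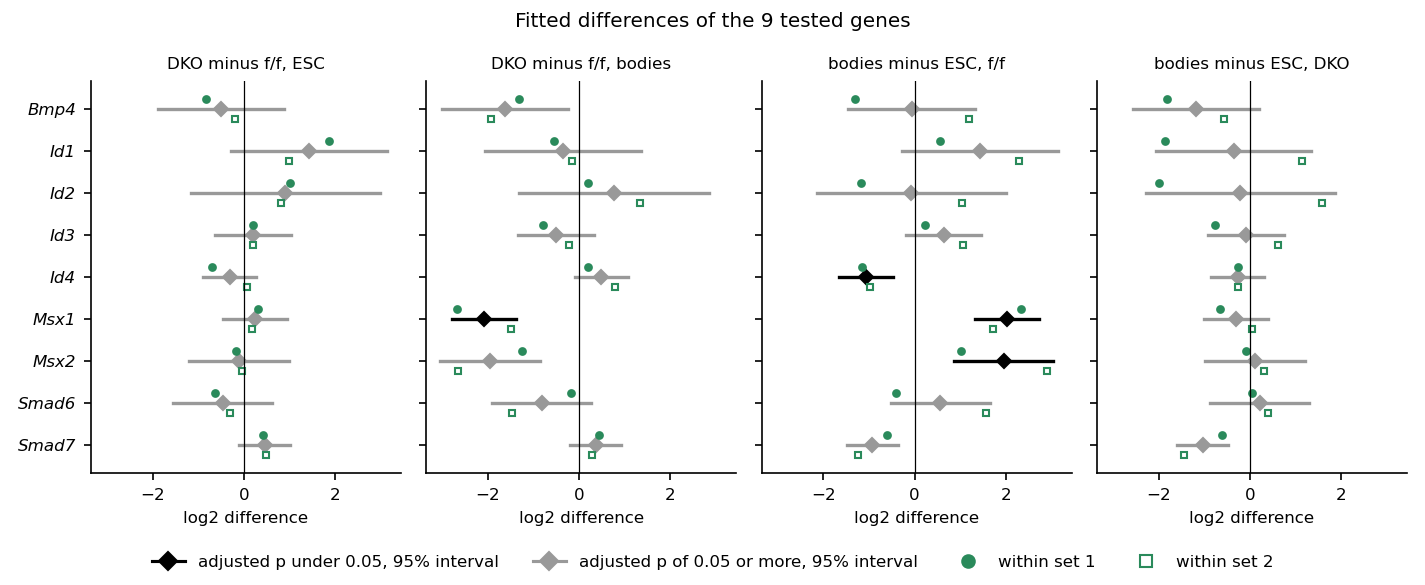
Fitted log2 differences of the 9 tested genes with 95% intervals (diamonds, black where the limma adjusted p is under 0.05) and the differences within set 1 (filled circles) and set 2 (open squares). Msx1 and Msx2 lie near 2 between f/f bodies and f/f ESC, and Bmp4, Id2 and Smad6 have circles and squares on opposite sides of 0 in that comparison.

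Counts of these genes past the threshold stood beside the share of all genes as follows. Between DKO and f/f ESC 0 of 9 passed, against 4.24% of all genes tested. Between DKO and f/f bodies 1 of 9 passed (Msx1, lower), against 4.44%. Between f/f bodies and f/f ESC 3 of 9 passed (Msx1 and Msx2 higher, Id4 lower), against 12.0%. Msx1 and Msx2 passed the filter only through the f/f bodies, where they were high, so counts that hold them are not read as a result. Id4 was the only other gene called. Between DKO bodies and DKO ESC 0 of 9 passed, against 0.826%. For the difference between the genotype effects 0 of 9 passed, against 0.00% of all genes, with 1704 of 12466 genes at an unadjusted p under 0.05 in limma and 0 genes called by edgeR. At this number of libraries the low counts do not show that values were equal.

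Among extracellular antagonists and intracellular inhibitors, 3 genes passed a test between genotypes. Fst (follistatin), a secreted binder of activins and BMPs, stood at 2.67 RPKM and 1.59 FPKM in f/f ESC, 23.5 RPKM and 11.3 FPKM in f/f bodies, and 4.2 RPKM and 2.88 FPKM in DKO bodies. It rose in f/f cells by 2.49 ± 0.37 (limma adjusted p = 0.0179) and was lower in DKO than in f/f bodies by 1.95 ± 0.37 (limma adjusted p = 0.0437). Nbl1 (DAN), another secreted antagonist, was lower in DKO bodies (1.05 RPKM and 1.94 FPKM) than in f/f bodies (2.98 RPKM and 5.04 FPKM), by 1.00 ± 0.18 (limma adjusted p = 0.0375). Of 9 antagonists tested of 13 listed, 1 rose in f/f differentiation, where 12.0% of all genes were called, and 2 were lower in DKO bodies, where 4.44% were. Tob1, which binds receptor Smads and represses their activity, was higher in DKO ESC (52.6 RPKM and 29.7 FPKM) than in f/f ESC (25.1 RPKM and 10.4 FPKM), by 1.23 ± 0.22 (limma adjusted p = 0.0373), and fell in f/f differentiation by 0.94 ± 0.22 (limma adjusted p = 0.0426). Of 5 intracellular inhibitors tested, Tob1 alone was called in each of these comparisons, where 4.24% and 12.0% of all genes were called. Without the filter on low values limma's adjusted p was 0.0993 and 0.199 for Fst, 0.142 for Nbl1, and 0.167 and 0.157 for Tob1.

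Among 4 tested of 13 further target genes listed, Gata2 alone passed a test, between DKO and f/f ESC, where 4.24% of all genes were called. With so few genes tested, 1 call is not read as a result about the list. It stood at 2.13 RPKM and 0.829 FPKM in f/f ESC and at 5.86 RPKM and 8.39 FPKM in DKO ESC, a difference of 1.75 ± 0.33 (limma adjusted p = 0.0430, and 0.191 without the filter on low values). Hand1, a transcription factor of extraembryonic and lateral mesoderm, passed the filter only through the f/f bodies (mean of 0.663 without them). It stood at 62 FPKM in the f/f bodies of set 2 and at 1.78 RPKM in those of set 1, and its difference between DKO and f/f bodies of -3.01 ± 1.23 did not pass (limma adjusted p = 0.231). Tbx3 went the other way, at 7.17 RPKM and 8.26 FPKM in f/f and 46.7 RPKM and 16.8 FPKM in DKO bodies. In ESC Tbx3 stood at 34.3 RPKM and 11.9 FPKM in f/f and at 56.6 RPKM and 51 FPKM in DKO cells. Hey1, the remaining tested gene of the list, was lower in DKO cells in all 4 within-set pairs.

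Over all 7 pathway lists, 36 of 61 genes were tested. In ESC 3 were higher and 0 lower in DKO cells, against 4.24% of all genes called in either direction, with a median difference of 0.31 against 0.02 over all genes tested. In bodies 0 were higher and 2 lower in DKO cells, against 4.44%, with medians of 0.09 and -0.01. In f/f differentiation 7 rose and 3 fell, against 12.0%, with medians of 0.27 and 0.06. In DKO differentiation 0 passed in either direction, against 0.826%, with medians of -0.09 and 0.04. Without the filter on low values 0 of these 15 calls passed, with limma adjusted p of 0.0605 to 0.199. Without replicate 2 of the f/f ESC or of the f/f bodies 0 genes of any kind were called in f/f differentiation, and without replicate 1 of either 3 genes were. Between genotypes 0 genes were called in ESC without f/f replicate 1 or 2 or DKO replicate 2, and 0 in bodies without f/f replicate 2. Over all genes the f/f differentiation calls split into 1014 higher and 481 lower, a split that depended on scaling, at 760 and 807 with median-of-ratios scaling, 658 and 556 with quantile scaling, and 790 and 741 in edgeR.

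Fibroblast markers, which in ESC cultures can come from feeder cells, summed to 52.3 and 70.1 RPKM in the f/f and DKO ESC of set 1 and to 449 and 391 FPKM in those of set 2, and to between 23.8 and 88.3 in the bodies. They were thus higher in ESC than in bodies of the same set. Smad7 and Id4, which were lower in bodies, stood in fibroblasts at 7.16 to 10.4 FPKM and at 0.708 to 1.44 FPKM, below their ESC levels in set 2. The part of feeder cells in these changes was not tested.

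**Figure D3:**
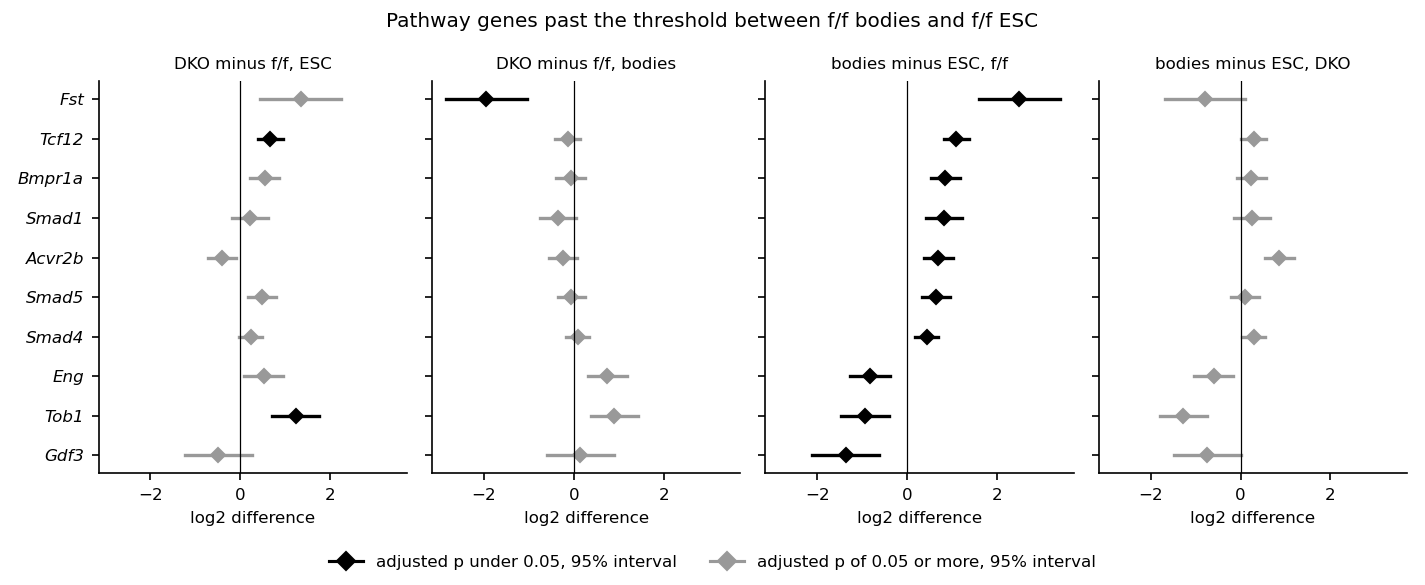
Fitted log2 differences with 95% intervals for the 10 pathway genes that passed the test between f/f bodies and f/f ESC, shown in 4 comparisons (black diamonds, limma adjusted p under 0.05; grey diamonds, not under it). Fst lies at 2.49 between f/f bodies and f/f ESC and at -1.95 between DKO and f/f bodies.

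The genes with patterns most like those of the members that passed a test were found by Pearson's r of log2(value + 1) over the 8 ESC and body libraries, after centring each set. Only tested genes with a name-like symbol were ranked, which left out Gm, Rik, LOC and microRNA names among others. The highest of many genes were picked, which by itself favours a high r. For Msx1 they were Sephs1 (r = 0.993), Tpm4 (0.990) and Ppp2ca (0.988), for Msx2 Sh3bp4 (0.991), Phox2a (0.988) and Tmem185a (0.984), and for Id4 Chtop (0.977), Arl4a (0.975) and Rfxank (0.973). Among the 9 genes themselves r was 0.82 for Msx1 with Msx2, 0.88 for Msx2 with Smad6, 0.83 for Id1 with Id3 and 0.76 for Id1 with Id2. Id4 and Msx2 had an r of -0.76, and Msx2 and Smad7 one of -0.74. These values describe 8 libraries that share 4 groups and their depth.

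In fibroblasts and day-20 cells, with 1 library per group, there is no replicate check and no test. All levels that follow are FPKM, and a difference past 1 on the log2(FPKM + 1) scale is called past 2-fold. 8 of the 10 genes averaged 1 or more across these 4 libraries, and Bmp2 and Msx1 did not.

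Between fibroblasts, all 8 were lower in the library labelled DKO, where the median difference over all genes was 0.04. Past 2-fold lower were 2 of the 8, against 635 of 12281 genes (8.89% of genes in either direction). Smad6 stood at 10.4 FPKM in the library labelled f/f and 1.39 FPKM in the one labelled DKO, a difference of -2.25. Id1 stood at 25.7 and 5.54 FPKM, a difference of -2.03. The other Id genes differed by less, with Id2 at 37 and 19.3 FPKM, Id3 at 124 and 92.2 FPKM and Id4 at 1.44 and 0.708 FPKM. Bmp4 stood at 11.6 and 7.33 FPKM, Msx2 at 3.1 and 2.02 FPKM and Smad7 at 10.4 and 7.16 FPKM. Bmp2 stood at 0.136 and 0.044 FPKM, from 14 and 6 reads. Msx1, which f/f bodies expressed, had 0 reads in both fibroblast libraries, which allows up to 0.0537 FPKM in the library labelled f/f and 0.0406 FPKM in the one labelled DKO if 3 reads are taken as the limit. These limits cover counting error only.

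At day 20, 6 of 8 genes were past 2-fold between the libraries labelled DKO and f/f, against 18.7% of all genes, 5 of them lower (10.4% of all genes) and 1 higher (8.26%). Bmp4 stood at 17.8 FPKM in the library labelled f/f and 3.79 FPKM in the one labelled DKO, a difference of -1.97. Id1 stood at 21.5 and 4.66 FPKM, Id2 at 26.2 and 5.51 FPKM and Id3 at 138 and 45.9 FPKM, differences of -1.99, -2.06 and -1.57. Smad6 stood at 6.94 and 1.39 FPKM, a difference of -1.73. Smad7 went the other way, at 5.86 and 14.8 FPKM, a difference of 1.21. Id4 (1.97 and 0.952 FPKM) and Msx2 (2.46 and 1.82 FPKM) were within 2-fold on this scale. Bmp2, not counted among the 8, stood at 1.54 and 0.156 FPKM, from 137 and 13 reads. Msx1 had 3 reads in the library labelled f/f and 0 in the one labelled DKO.

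**Figure D4:**
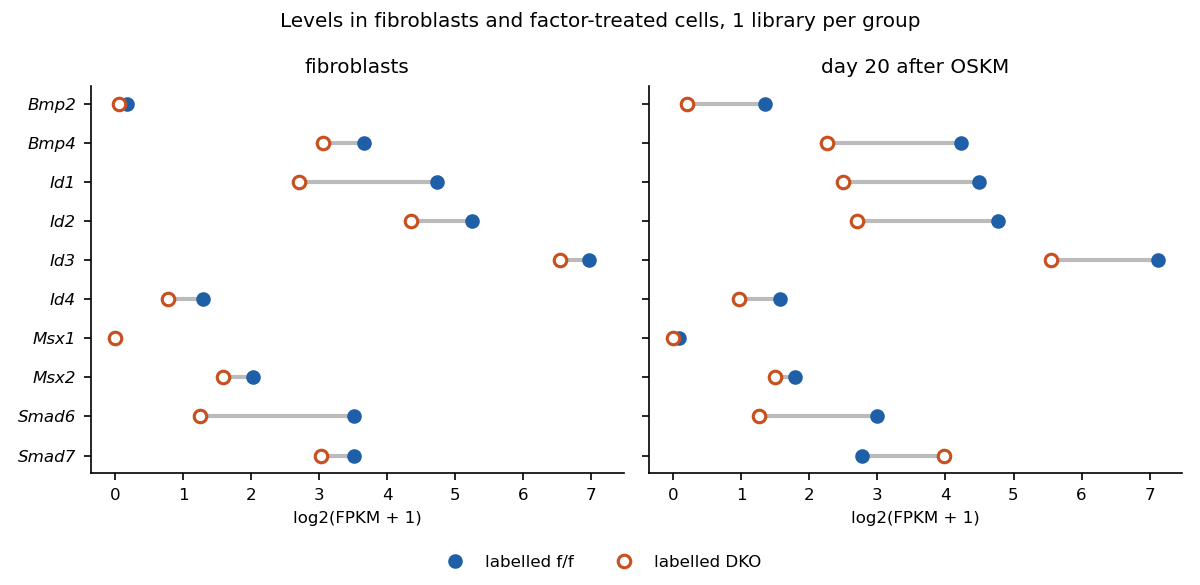
Level of each gene on the scale log2(FPKM + 1) in fibroblasts (left) and day-20 cells (right), 1 library per group, with filled blue points for libraries labelled f/f and open orange points for those labelled DKO. Smad7 at day 20 is the gene that lies higher in the library labelled DKO, at 14.8 against 5.86 FPKM.

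From fibroblasts to day 20, 0 of 8 genes were past 2-fold between the libraries labelled f/f, against 12.0% of all genes. Between those labelled DKO, Id2 was past 2-fold (19.3 and 5.51 FPKM, a difference of -1.64), 1 of 8 against 7.71%. The libraries labelled f/f moved most in Smad7, by -0.73, among the 8, and Bmp2 outside them went from 0.136 to 1.54 FPKM.

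Genes of the pathway lists were tested for size in the same way, 45 of 61 averaging 1 or more across the 4 libraries. Between fibroblasts 5 were past 2-fold higher and 4 lower in the library labelled DKO, against 8.89% of all genes in either direction. The higher ones were Smad1 (11.2 and 35.8 FPKM in the libraries labelled f/f and DKO), the antagonists Nog (1.28 and 5.18 FPKM) and Chrdl1, and the targets Gata3 and Hey1. The lower ones were the ligand Gdf7 (8.33 and 0.262 FPKM), the antagonist Grem1 (66.9 and 5.69 FPKM), and the targets Gata2 and Atoh8. At day 20 9 were higher, against 8.26% of all genes, and 11 lower, against 10.4%. Smad1, Nog, Chrdl1 and Gata3 were again past 2-fold higher, and Gdf7 and Atoh8 lower. The receptor Acvrl1 (8.38 and 0.0789 FPKM) and the coreceptor Eng (6.5 and 0.323 FPKM), both best known from endothelium, were lower at day 20.

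Other markers moved with these differences. Summed fibroblast markers were 3720 FPKM in the fibroblast library labelled f/f and 2790 FPKM in the one labelled DKO. Past 2-fold lower were 6 of 12, against 635 of 12281 genes. At day 20 they summed to 14100 and 9750 FPKM, with 8 of 12 past 2-fold lower, against 1283 of 12281 genes (10.4%). Col1a1 weighed heavily in these day-20 sums, at 6060 and 921 FPKM. Col1a2 went the other way, at 1390 and 1720 FPKM in fibroblasts and 2660 and 3890 FPKM at day 20. Col3a1 did so too, at 362 and 516 FPKM and at 3850 and 4610 FPKM. Summed pluripotency markers were 7.52 and 7.31 FPKM in fibroblasts and 40 and 10.5 FPKM at day 20. Nanog made up most of the fibroblast sums, at 7.26 and 7.17 FPKM, and stood at 5.49 and 9.68 FPKM at day 20, where Pou5f1, which is also one of the delivered factors, stood at 19.8 and 0.118 FPKM. Their part in the levels of the 10 genes was not tested.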

How the data were processed

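RNA was measured in 12 libraries, grouped by the stage and genotype in their labels. In set 1 the authors deposited read counts and RPKM values per RefSeq transcript, per the file headers, and in set 2 FPKM values for each Entrez gene, as their headers state. The notes on processing that the submitters gave name build mm9, bedtools 2.16, SICER 1.1 and CASAVA 1.8.2. The aligner, annotation release, gene lengths behind FPKM, strand setting and treatment of shared reads are not stated in the sources used here.

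Transcripts were joined to genes through a RefSeq table of GRCm38.p6, used for names, and 28436 of 29082 matched. Each of the 10 genes had 1 transcript in set 1. For the 3760 genes with more than 1, the transcript with the most reads was used. Depth behind FPKM was recovered from the steps of low values of genes with 1 transcript, of which 91.0% to 92.5% per library gave whole reads within 0.02. Reads of Bmp2 and Id1 in set 2 rest on a searched gene length.

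The test was limma 3.58.1 in R 4.3.3 on log2(value + 1) with 4 groups and a deposit set term, which is the replicate number, over 8 libraries (two-sided, empirical Bayes, mean-variance trend, 3 residual degrees of freedom, Benjamini-Hochberg, threshold 0.05), after a filter at a mean of 1. The deviations of same-set libraries from their group means correlated at 0.864 to 0.954 across genes, so the block was kept. The script was tested on simulated data, where calls held more false ones than the threshold allows for. That simulation gave each set an effect shared by both stages, so it does not cover set effects that differ by stage. Alternatives covered the pseudocount, the filter, scaling, the transcript choice, the set term, the trend, edgeR 4.0.16 and each library left out. All 10 genes were named in every comparison, with list genes past the threshold or, where a list had none, at most 2 with the largest difference. The genes and lists were chosen with earlier results of these data known.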

Additional observations from a re-analysis of the deposited data

Results flagged for a closer look

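In fibroblasts and day-20 cells, 3 genes moved in opposite ways in the groups compared, with 1 library on each side and no test of the difference. Bmp4 differed between day 20 and fibroblasts by 0.58 on the log2(FPKM + 1) scale in the libraries labelled f/f and by -0.80 in those labelled DKO. Id3 differed by 0.16 and -0.99. Smad7 differed by -0.73 and 0.96. The genotype difference of Smad7, DKO minus f/f by label, was -0.48 in fibroblasts and 1.21 at day 20. The other 5 genes above the low-value filter had the same sign in both groups, or a difference of 0.00 in one of them.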

How the results depend on the processing

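The fit took the deposit set, which is also the replicate number, as a replicate block. With no deposit set term (no replicate block), genes called fell to 0 between genotypes in ESC, 2 in bodies, 0 in f/f and 1 in DKO differentiation, and 0 members were called in bodies and in f/f differentiation. With a set term for each stage, the genes called were 1428, 1524, 3241 and 886 in that order and 353 for the interaction, and the members called were 2, 3, 6 and 2. With no filter on low values the genes called were 0, 23, 14, 15 and 4, and 0 members were called in bodies and in f/f differentiation. In bodies 2 members were called with a pseudocount of 0.1 and 2 in edgeR. With no mean-variance trend 31 genes were called in DKO differentiation. At day 20 against fibroblasts labelled DKO, 3 members were past 2-fold with a pseudocount of 0.1 and 2 with 0.5. The cause of these changes was not tested.

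Leaving out 1 library gave 0 to 722 genes called in ESC, 0 to 789 in bodies, 0 to 1882 in f/f and 0 to 111 in DKO differentiation, with 0 to 1 members called in bodies and 0 to 3 in f/f differentiation. The lone library of a group is then assumed to vary like the others. The sign turned for these fitted differences, none of them past the threshold. Between genotypes in ESC the range was -1.34 to 0.33 for Bmp4, -0.13 to 1.95 for Id2, -0.16 to 0.58 for Id3, -0.52 to 0.32 for Msx2 and -0.96 to 0.03 for Smad6. In bodies it was -1.28 to 0.57 for Id1, -0.58 to 2.12 for Id2 and -1.07 to 0.04 for Id3. In f/f differentiation it was -0.90 to 0.77 for Bmp4, -0.96 to 0.83 for Id2 and -0.24 to 1.39 for Smad6. In DKO differentiation it was -1.44 to 0.73 for Id1, -1.56 to 1.14 for Id2, -0.64 to 0.47 for Id3, -0.72 to 0.11 for Msx1, -0.23 to 0.45 for Msx2 and -0.06 to 0.49 for Smad6. For the interaction it was -1.49 to 1.21 for Id2, -1.18 to 0.46 for Smad6 and -0.39 to 0.20 for Smad7. In edgeR the Id2 interaction turned to 0.18. Of the other settings, 552 of the single-gene values kept their direction and side of the threshold, 9 calls were lost and 13 gained. Bmp2 and Msx1 had under 20 reads in the DKO bodies, which limits the precision of their differences.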
